A study of Mus musculus with 2 samples.

Results

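The cytosolic ribosomal protein genes encode the proteins that, with ribosomal RNA, build the ribosomes of the cytosol. They were taken as all genes whose symbol is Rpl or Rps followed by a number and at most 1 letter, together with Rplp0, Rplp1, Rplp2 and Rpsa. The rule found 80 of the 26124 genes in the count matrices, 49 of the large subunit (Rpl and Rplp) and 31 of the small subunit (Rps and Rpsa). In the cells that were kept, 79 of the 80 had at least 100 UMIs in each library, and Rpl10l, a copy of Rpl10 best known from the testis, had 0 UMIs in both, which at a floor of 3 counts allows up to 0.0280 and 0.0462 CPM. CPM is the usual scaling of a gene's UMIs to a common total. A UMI is the tag of 1 RNA molecule, so that UMIs count molecules. The rule took in the paralogs Rpl3l, Rpl39l, Rpl10l and Rps27l by their single letter, and it left out Rps3a1, Fau and Rpl36al, among others.

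The data are 2 single-cell RNA-seq libraries of mouse spleen cells that were captured with beads coated with an antibody to F4/80, a surface protein of macrophages. The study compared the spleen of a mouse with sickle cell disease (SCD), in which red cells break down early, with that of a control mouse that carries the transgene. By the labels, the mouse called wild-type was homozygous for Hbatm1Paz, heterozygous for Hbbtm1Tow and hemizygous for the human transgene Tg(HBA-HBBs)41Paz, and the SCD mouse was homozygous for all of them. Both mice were untreated and 12 to 16 weeks old, and each condition had 1 library, so both groups carried all of these alleles, and the doses of Hbbtm1Tow and of the transgene differed between them. With 1 mouse per label no test between conditions was possible, and the intervals given are 95% intervals that cover counting error only.

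Each ribosome holds 1 copy of most of these proteins, and cells make them in matched amounts. Their messengers begin with a run of pyrimidines, the terminal oligopyrimidine tract, through which mTOR signalling and the protein LARP1 set how strongly they are translated. Erythroid cells make very many ribosomes early and then lose them as the reticulocyte matures, and inherited loss of 1 copy of RPS19 or of several other members causes Diamond-Blackfan anemia, a failure of red cell production.

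The starts of the genes are shown because this tract is the sequence feature described for the family. RefSeq entries of 300 bases around the annotated start (mouse build GRCm38.p6) were found for 60 of the 80 members. A tract was taken as a C followed by at least 4 C or T, read on the gene's strand. It had to begin within 10 bases to either side of the annotated start, so a marked tract may begin before it. Such a tract was found in 38 of the 60 (63.3%) and in 9007 of all 27025 genes (33.3%). The windows below run 15 bases to each side of the start, 5′ to 3′ on the gene's strand, with the longest such tract in capitals. Rpl27a (chr7:109519180-109519209, plus strand) and Rps15 (chr10:80292416-80292445, plus strand) were among the 3 members that followed the module most closely across cell classes. Rpl38 (chr11:114668565-114668594, plus strand) and Rps18 (chr17:33955651-33955680, minus strand) were at opposite ends of the erythroid comparison, and Rpl28 (chr7:4792950-4792979, plus strand) and Rpl41 (chr10:128549154-128549183, minus strand) are named in the comparisons of libraries and of classes.
Rpl27a: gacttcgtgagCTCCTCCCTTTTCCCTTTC
Rps15: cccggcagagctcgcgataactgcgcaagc
Rpl38: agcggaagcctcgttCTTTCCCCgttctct
Rps18: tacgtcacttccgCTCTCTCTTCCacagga
Rpl28: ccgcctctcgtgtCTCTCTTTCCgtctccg
Rpl41: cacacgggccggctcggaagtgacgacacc
The tract of Rpl27a was 20 bases long, 1 more than the window shows, those of Rpl28, Rpl38 and Rps18 were 10, 8 and 11 bases, and the windows of Rps15 and Rpl41 held none at these annotated starts.

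The libraries labelled wild-type and SCD held 145953464 and 73986356 UMIs in 24144 and 15442 barcodes. Of these, 19419 and 12280 cells were kept, with medians of 4115 and 4570 UMIs, and 107 barcodes stood in both libraries. The targeted genes went against the labels. In erythroid-like cells the mouse β-globin gene Hbb-bs was at 163.4 CPM in the wild-type-labelled library and at 63720 in the SCD-labelled library, and Hbb-bt was at 277.2 and 19830. Hba-a1 was at 30940 and 34850, although both mice were labelled homozygous for Hbatm1Paz. The sources used here do not say which part of a gene each allele removes. The libraries are therefore named by their labels, and every direction between them rests on those labels and would be reversed if they were exchanged, which was not tested. Cells were clustered without the ribosomal protein and hemoglobin genes and named from marker lists. Clusters with markers of both red pulp macrophages (RPM) and erythroid cells were called EBI-like, after the erythroblastic island that a macrophage forms with erythroblasts. The wild-type-labelled library held 4643 RPM-like and 5398 EBI-like cells and the other 1626 and 826. All 12 RPM markers were above 2 times their level in the remaining cells in the SCD-labelled library and 10 in the other. The cDC2-like name was weak, since 2 of its 10 markers passed that limit in the SCD-labelled library.

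Single members differed widely in level. Rps29, a small-subunit protein (ENSMUSG00000034892, chr12:69157722-69159186, minus strand), was at 4991 CPM in the wild-type-labelled library and 4850 in the SCD-labelled library. Rpl41, the smallest ribosomal protein (ENSMUSG00000093674, chr10:128548114-128549305, minus strand), was at 5012 and 3520 CPM. Rpl37a was at 3181 and 3905, and Rps9 at 3098 and 3670. These were among the members with the highest mean. At the low end, Rpl13a was at 149.6 and 150.2 CPM, Rps27l at 244.6 and 176.8, Rpl39l at 8.57 and 2.22, and Rpl3l at 1.21 and 2.31. Reads were counted at 3′ ends, so the levels do not scale with length. Near-identical copies may bear on them, which was not tested. Copies were searched at the end of each member's longest principal annotated transcript, which may not be the end that was sequenced. Rps15a and Rps20, for example, were searched on transcripts of 5179 and 3706 bases. Of the 80 members, 25 shared no stretch of 90 bases of these last 400 with a transcript of another gene. At least 50% of such stretches were shared by 30. The latter had a median of 818 CPM against 1011 in the others. Rpl10, Rpl36a and Rpl9 shared 100%, Rpl13a and Rpl37a 0%, and the order of members by level is uncertain for those with copies. A value of 0% does not show that a member has no copies.

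Among the named classes, the share of UMIs from the module was highest in lymphocytes and lowest in neutrophils and macrophages. The 5 clusters left unnamed held 2317 cells labelled wild-type and 3017 labelled SCD, and together were at 11.8% and 11.9%. The largest of them, led by Ffar2 and Kit with 644 and 2151 cells, was at 13.5% and 13.4%, above the B lymphocyte-like class. T lymphocyte-like cells were at 14.98% (14.8 to 15.2) labelled wild-type and 13.98% (13.8 to 14.1) labelled SCD, from 63 and 80 cells. B lymphocyte-like cells had 12.8% and 12.1%, cDC2-like cells 12.1% and 12.2%, and Ly6c-high monocyte-like cells 11.8% and 11.4%. In the latter, the cluster led by Fn1 and Ccr2 was at 12.8% and 11.5%. The class's other cluster, led by Slfn14 and Ypel4, had 555 and 22 cells, 60.0% of them scored as doublets, and 2 of its 10 leading genes were monocyte markers and 2 late erythroid markers. It was at 10.3% and 8.43%. Mature dendritic (DC)-like cells followed with 10.3% and 9.97%, and Ly6c-low monocyte-like cells, the patrolling monocytes, with 8.78% and 8.74%. RPM-like cells, which take up old red cells and recycle their iron, had 7.18% and 5.71%, and EBI-like cells 7.43% and 5.83%, with 1.41% and 10.5% hemoglobin. Different clusters made up the EBI-like class, since the one led by Hbb-bs and Hbb-bt held 593 of the cells labelled SCD and 20 of those labelled wild-type, and it was at 7.07% and 5.44%. Neutrophil-like cells, present in number only in the wild-type-labelled library, had 5.74% (5.71 to 5.77). In the SCD-labelled library cDC2-like cells stood above B lymphocyte-like cells and Ly6c-low monocyte-like cells above erythroid-like cells, the reverse of the other library, and the rest of the order was the same. The intervals of Ly6c-low monocyte-like cells overlapped between the libraries.

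Single cells of a class varied widely. In erythroid-like cells labelled wild-type the share per cell ran from 2.57% at the 5th percentile through a median of 6.88% to 15.9% at the 95th, and in those labelled SCD from 0.943% through 3.29% to 12.2%. In RPM-like cells these were 4.63%, 7.69% and 11.4% against 3.22%, 5.40% and 10.8%. UMIs of the large subunit outnumbered those of the small in every class. Rpl UMIs were 1.16 times Rps UMIs over all kept cells labelled wild-type and 1.09 times over those labelled SCD. Among classes the ratio was highest in erythroid-like cells, at 1.25 and 1.22, and lowest in neutrophil-like cells labelled wild-type (1.06) and Ly6c-low monocyte-like cells labelled SCD (1.04). Within the erythroid-like class it was 1.25 in cycling and 1.43 in non-cycling cells labelled wild-type, and 1.22 and 1.28 in those labelled SCD.

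**Figure D1:**
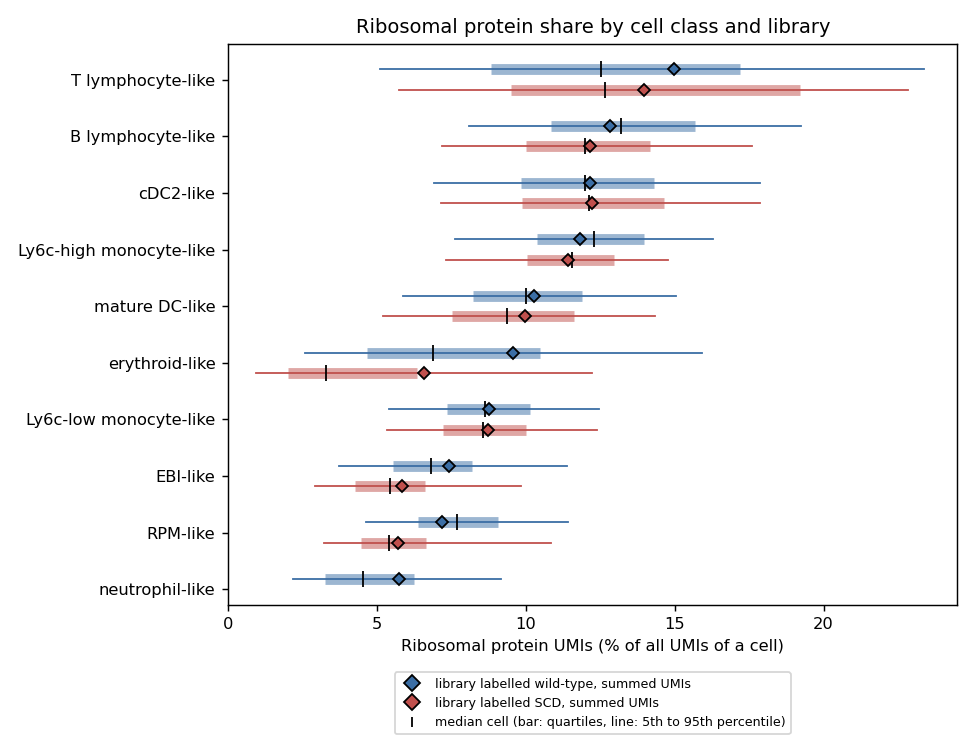
Share of a cell's UMIs from the 80 ribosomal protein genes, in percent, for each named cell class and library. Diamonds are summed UMIs of all cells of a class, ticks median cells, bars quartiles and lines the 5th to 95th percentile; T lymphocyte-like cells sit highest at 14.98% and 13.98%, and the median erythroid-like cell (6.88% and 3.29%) lies well under the summed share of its class.

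Over all kept cells the SCD-labelled library had the higher share, 10.34% (10.33 to 10.35) against 9.30% (9.29 to 9.30), a log2 ratio of 0.15. Within clusters the direction was the other way. Of 22 clusters with at least 20 cells in each library, 20 had a lower share in the SCD-labelled library with the interval of the log2 ratio below 0, for 2 the interval held 0, and for 0 it lay above. Of the 9 named classes present in both libraries, 7 were lower, Ly6c-low monocyte-like cells were within counting error, and cDC2-like cells were 1.006-fold higher. Each cDC2-like cluster was lower by itself. The log2 ratio was -0.012 in the one led by Cd209a and Clec10a and -0.031 in the one led by Cep55 and Pimreg. The libraries also differed in their mix of cells. Weighted by the clusters' UMIs in the wild-type-labelled library, the shares labelled wild-type gave 9.30% and those labelled SCD 7.85%. Weighted by the UMIs of the SCD-labelled library, they gave 11.4% and 10.3%. With either mix held fixed, the shares labelled SCD gave the lower total. These totals used all 26 clusters, with no minimum of cells. The cluster led by Gm48996 and Dock3 had 1087 cells labelled wild-type and 4 labelled SCD, so its share in the latter rests on very few cells.

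The cluster ratios ran from -1.09 to 0.01. The cluster farthest down held non-cycling erythroid-like cells. It was followed by an EBI-like cluster at 7.08% and 4.93%, which had 30 cells labelled SCD. Erythroid-like cycling cells, led by Hemgn and Klf1, were at 10.0% and 7.42%. At the other end, RPM-like cells led by Marco and Cd5l were at 8.27% (8.25 to 8.29) and 8.32% (8.16 to 8.48), and the Ly6c-low monocyte-like cluster was the other one whose interval held 0.

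**Figure D2:**
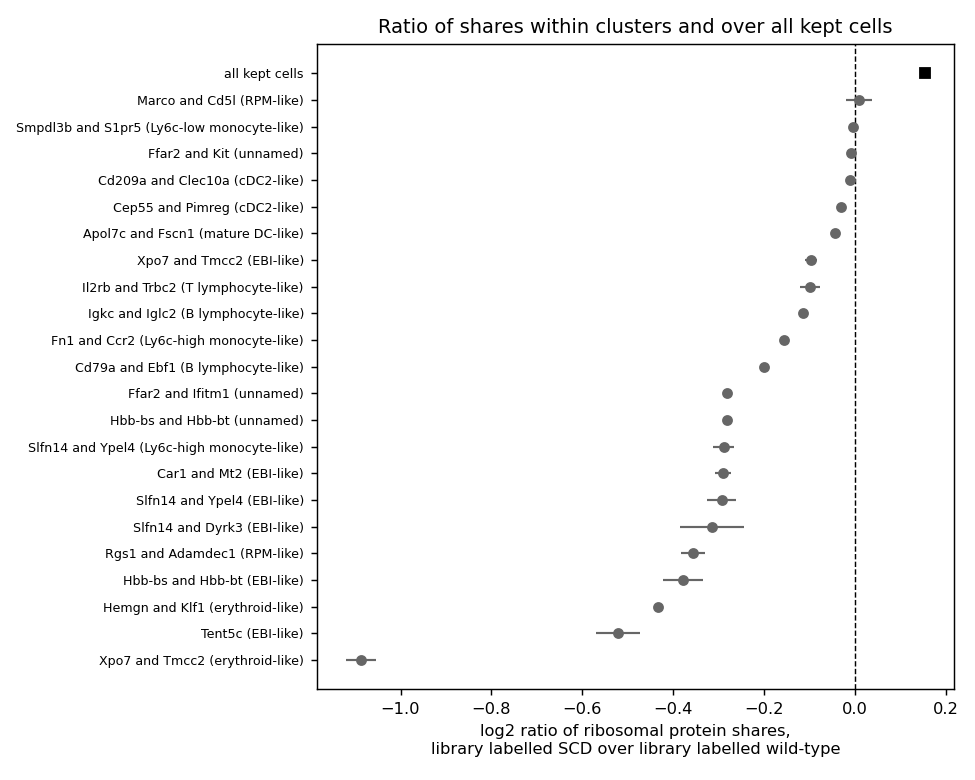
log2 ratio of the ribosomal protein share, SCD-labelled library over wild-type-labelled library, for the 22 clusters with at least 20 cells in each (circles, 95% counting intervals) and for all kept cells (square). All kept cells lie at 0.15, right of 0, while the clusters run from -1.09 to 0.01.

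The erythroid stages were told apart by cycling markers. With both libraries together, summed late erythroid markers were at 10520 CPM in the cycling and 32720 in the non-cycling cluster. Summed early erythroid markers were at 4054 and 4010 CPM and did not separate them. The share was lower in the non-cycling cells of both libraries. In the wild-type-labelled library it was 10.03% (10.02 to 10.05) in the cycling cluster of 2098 cells and 4.87% (4.84 to 4.90) in the non-cycling cluster of 588, 2.06-fold lower (log2 ratio -1.04). In the SCD-labelled library it was 7.42% (7.38 to 7.46) in 189 cells and 2.29% (2.24 to 2.34) in 112, 3.24-fold lower (log2 ratio -1.70). The median cell held 630.5 ribosomal protein UMIs when cycling and 108 when not in the former, and 371 and 52.5 in the latter. These were reductions in both the share and the number per cell.

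Other measures moved with the stage. Hemoglobin made up 2.80% and 7.38% of UMIs in cycling and non-cycling cells labelled wild-type, and 9.03% and 26.6% in those labelled SCD. Median UMIs per cell went from 7713.5 to 2489.5 and from 7204 to 2602. Without hemoglobin and mitochondrial UMIs in the total the log2 ratios were -0.96 and -1.39. In cells of 2000 to 5000 UMIs, a limit chosen after the data were seen, they were -0.38 and -1.03. The latter rested on 81 non-cycling and 34 cycling cells. With doublets left out and the cells clustered anew, the ratios were -0.84 and -1.12. The non-cycling cells then numbered 1054 and 159, so the border between the stages also moved. Within the erythroid-like class the share was 4.63% in the quartile of cells with the fewest UMIs and 11.4% in the quartile with the most in the wild-type-labelled library, and 2.00% and 9.17% in the other. The part of depth and of hemoglobin in the stage ratios was not tested beyond these values.

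Nearly every member was lower in the non-cycling cells. In the wild-type-labelled library 77 of 78 members with at least 100 UMIs were lower by a log2 ratio of 0.5 or more and 0 were higher, where 60.8% of all 9130 genes measured were lower and 8.62% higher. In the SCD-labelled library all 77 that could be measured were lower and 0 higher, against 71.5% lower and 12.4% higher among 3114 genes. The median log2 ratio of the members was -1.18 in the former and -1.74 in the latter, and that of all genes was -0.79 and -1.39. The small subunit had medians of -1.21 and -1.81 and the large subunit -1.16 and -1.70. Most genes were thus lower in these cells, and the ribosomal protein genes lay below the middle of them.

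The members did not move equally. Measured against the module as a whole, 56 of 77 lay on the same side in both libraries, 39 lower and 17 less low. The module's log2 ratios of -1.04 and -1.70 were above the members' medians of -1.18 and -1.74. Most members thus lay lower in each library, and the count of 56 alone does not measure agreement. The largest excess was that of Rpl13a, which besides its place in the ribosome is known for translational control in inflammation. It was at a log2 ratio of -1.30 in the wild-type-labelled library and -3.14 in the SCD-labelled library, where it rested on 6 UMIs in the non-cycling cells. Rps18 followed with 576.6 CPM in cycling and 179.3 in non-cycling cells labelled wild-type (log2 ratio -1.69), and 451.5 and 75.8 in those labelled SCD (-2.57). Rpsa, the laminin receptor of the small subunit, was at -1.64 and -2.31, Rps2 at -1.37 and -2.53, Rpl4 at -1.47 and -2.30, Rps16 at -1.30 and -2.44, and Rplp0, the base of the ribosomal stalk, at -1.29 and -2.37. Other large reductions were those of Rpl14 (-1.60) and Rpl18 (-1.53) in the wild-type-labelled library. Rpl39l had 3 UMIs against 102 there, a ratio of CPM of 0.305 (0.0619 to 0.917).

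A second set was reduced least. Rpl37a went from 2651 to 1695 CPM in cells labelled wild-type (log2 ratio -0.65) and from 1814 to 966.8 in those labelled SCD (-0.91). Rpl38, which is known for its part in translating Hox messengers, was at -0.42 and -1.20, Rpl10 at -0.64 and -0.99, Rps29 at -0.72 and -1.15, Rpl34 at -0.86 and -1.02, and Rpl7 at -0.72 and -1.23. Rpl9 and Rpl17 were both at -1.14 in the SCD-labelled library, and at -1.09 and -0.87 in the other. Rpl41 was at -0.59 in the wild-type-labelled library but at -2.03 in the other. Of these, Rpl10 and Rpl9 shared all of their 3′ ends with copies.

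**Figure D3:**
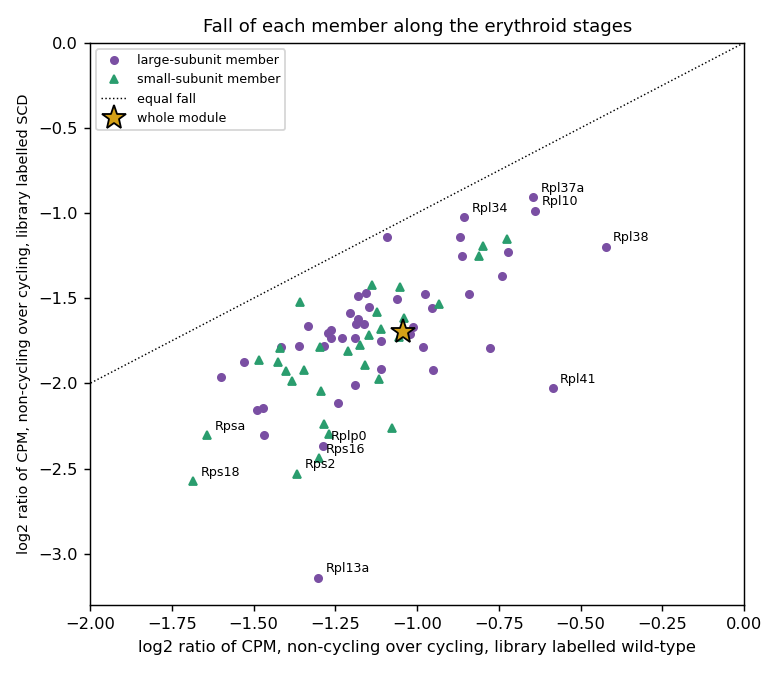
log2 ratio of CPM, non-cycling over cycling erythroid-like cells, for each of 77 members in the wild-type-labelled library (x) and the SCD-labelled library (y), with the dotted line marking equal change and the star the whole module at -1.04 and -1.70. All members lie below 0 on both axes, with Rpl13a lowest at -3.14 and Rpl37a highest at -0.91 on the y axis.

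Genes of the same pathway were also lower, beside 60.8% of all genes in the wild-type-labelled and 71.5% in the SCD-labelled library. Of 27 ribosome biogenesis genes, 21 of 24 measured were lower by the limit and 0 higher in the wild-type-labelled library, with a median log2 ratio of -1.55. In the SCD-labelled library 5 of 6 were, with a median of -2.45. Ncl, which encodes nucleolin, went from 436.2 to 132.8 CPM in the former and from 322.9 to 60.6 in the latter, and Ubtf, a factor of RNA polymerase I, from 260.1 to 63.5 and from 323.5 to 57.6. The 17 translation factors and partners with a terminal oligopyrimidine tract had medians of -0.88 and -1.56, beside -0.79 and -1.39 for all genes. Of them 13 and 16 were lower and 1 was higher in each library. The latter was Pabpc1, the poly(A)-binding protein, named after its values were seen, which went from 1754 to 8743 CPM and from 2001 to 11290. Eef1a1, the elongation factor that brings transfer RNA to the ribosome, went from 2671 to 1248 and from 2219 to 851.6, and Tpt1 from 3381 to 2958 and from 2932 to 1540. Fau, a ribosomal protein outside the rule, was at log2 ratios of -0.94 and -1.48, and Rps3a1 at -1.30 and -1.69. Of 78 mitochondrial ribosomal protein genes, 77 and 14 could be measured, and 73 and 14 were lower. Among 11 genes of the mTOR pathway measured in the wild-type-labelled library 8 were lower and 1 higher, namely Eif4ebp2, an inhibitor of translation initiation, at 179.6 and 337.6 CPM. Larp1 went from 140.3 to 53.9. The mTOR count rests on few genes, as do those of the 6 biogenesis and 14 mitochondrial ribosomal protein genes in the SCD-labelled library. These counts are read against the shares of all genes as no result about the lists.

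In RPM-like cells the share was 7.18% (7.17 to 7.19) in the wild-type-labelled library and 5.71% (5.69 to 5.73) in the SCD-labelled library, a log2 ratio of -0.33. Different clusters held most of the class in each library. In the wild-type-labelled library these were the cluster led by Marco and Cd5l and a cluster led by Gm48996 and Dock3 (6.24%), and in the SCD-labelled library a cluster led by Rgs1 and Adamdec1, at 7.27% in the 61 cells labelled wild-type and 5.67% in the 1542 labelled SCD. Median depth was 2136 and 4121 UMIs. In cells of 2000 to 5000 UMIs the log2 ratio was -0.50, and with a minimum of 200 genes per cell it was -0.22.

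By member, 18 of 78 were lower by a log2 ratio of 0.5 or more in RPM-like cells labelled SCD and 0 were higher. Over all 9980 genes measured 11.0% were lower and 28.3% higher. The median log2 ratio was -0.33 for the members and 0.20 for all genes. Large-subunit members were at -0.39 and small-subunit members at -0.30. The count was 11 with a minimum of 200 genes per cell, 40 in cells of 2000 to 5000 UMIs and 1 at a log2 limit of 1.

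The lowest ratio in RPM-like cells was that of the paralog Rpl39l, at 5.47 CPM labelled wild-type and 1.46 labelled SCD (log2 ratio -1.91, from 91 and 11 UMIs). Rpl28 was at 731.9 and 375.5 CPM (-0.96), Rpl38 at 1742 and 932.9 (-0.90), and Rps19, the member most often mutated in Diamond-Blackfan anemia, at 917.2 and 502.7 (-0.87). Rps27l, a paralog of Rps27 that p53 is known to induce, was at 211.3 and 118.1 (-0.84). The members with the highest ratios hardly differed between the libraries. Rpl7 was at 719.4 and 781.2 CPM (0.12), Rps7 at 477.8 and 515.1 (0.11), Rps13 at 443.2 and 464.8 (0.07), Rps6, the substrate of S6 kinase, at 427.7 and 448.4 (0.07), and Rpsa at 1310 and 1320 (0.01).

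Other lists in RPM-like cells moved in either direction, beside 28.3% of all genes higher, 11.0% lower and a median of 0.20. Of 27 ribosome biogenesis genes 6 were higher and 0 lower, with a median of 0.28. Of these, Ubtf was at 88.5 and 107.1 CPM, and Ncl, the most abundant, at 266.7 and 201.9. Of 10 ribosome rescue genes measured 3 were higher and 0 lower, among them Gtpbp2 (47.7 and 87.3 CPM) and Abce1, which splits ribosomes for recycling (62.8 and 92.1). These higher counts were near or below the share of all genes. Translation factors had 1 of 17 lower and a median of -0.15, subunits of RNA polymerases 1 of 10 lower and a median of -0.18 (Polr2l -0.23, Polr2k 0.12), and mitochondrial ribosomal protein genes 9 of 77 lower, near the share of all genes, and a median of -0.12. Of 11 mTOR pathway genes 2 were higher and 1 lower. Of 9 p53 targets measured 6 were lower and 0 higher, with a median of -0.69. The same list had 6 of 9 lower and 1 higher in erythroid-like cells (median -0.67), beside 21.1% and 6.98% of all genes (median -0.13). In B lymphocyte-like cells 4 of 8 were lower and 0 higher (median -0.54), beside 10.3% and 13.5% of all genes (median 0.11). In RPM-like cells Ccng1 was at 161.2 and 94.5 CPM and Trp53inp1 at 59.6 and 46.9, and Cdkn1a, named after its values were seen, at 73.4 and 5.43.

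Members were compared between libraries in RPM-like, B lymphocyte-like and erythroid-like cells, and of these the B lymphocyte-like cells had the median nearest 0. The share was 12.8% (12.8 to 12.9) and 12.1% (12.1 to 12.2), a log2 ratio of -0.08. Doublets made up 14.2% and 21.6% of these cells. The ratio was -0.20 without the cluster of which over 50% of cells scored as doublets, an alternative chosen after the data were seen, and -0.02 with a minimum of 200 genes per cell. Of 77 members 1 was lower and 0 higher, against 10.3% lower and 13.5% higher over all 9657 genes measured. The median was -0.05 for members and 0.11 for all genes. The lower one was Rpl29, at 501.7 CPM labelled wild-type and 351.0 labelled SCD (log2 ratio -0.52). Rpl24 was at -0.43, Rpl28 at -0.40, Rplp1 at -0.32 and Rps19 at -0.32. Rps13 had the highest ratio, at 1003 and 1359 CPM (0.44), followed by Rpl7 (0.32), Rpl9 (0.26), Rps7 (0.26) and Rpl30 (0.25). All of these were below the limit of 0.5 in size apart from Rpl29.

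Erythroid-like cells had the lowest median of these classes. Their share was 9.58% (9.57 to 9.59) labelled wild-type and 6.57% (6.54 to 6.61) labelled SCD, a log2 ratio of -0.54. Hemoglobin made up 3.20% and 11.9% of UMIs, and without hemoglobin and mitochondrial UMIs the shares were 10.7% and 8.08%. Of 78 members 37 were lower by the limit and 0 higher, where 21.1% of 9309 genes were lower and 6.98% higher. The median was -0.50 for members and -0.13 for all genes, and all 78 were below 0. The members' median thus lay at the limit, and no alternative was run for the count of 37. Non-cycling cells were 588 of 2686 cells labelled wild-type and 112 of 301 labelled SCD. By stage, the log2 ratio of the share was -0.43 in cycling and -1.09 in non-cycling cells. Rpl38 was at 1580 and 806.3 CPM (-0.97), Rpl28 at 1262 and 648.3 (-0.96), Rpl24 at 883.2 and 474.6 (-0.90) and Rpl26, known for its part in translating p53, at 828.1 and 456.0 (-0.86). Rpl39l had 105 UMIs against 1, a ratio of CPM of 0.0961 (0.00241 to 0.547). Closest to 0 were Rps7 (-0.07), Rpl5, which with Rpl11 binds MDM2 when ribosome assembly fails (-0.18), Rps15a (-0.22), Rps13 (-0.25) and Rpl7 (-0.26).

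**Figure D4:**
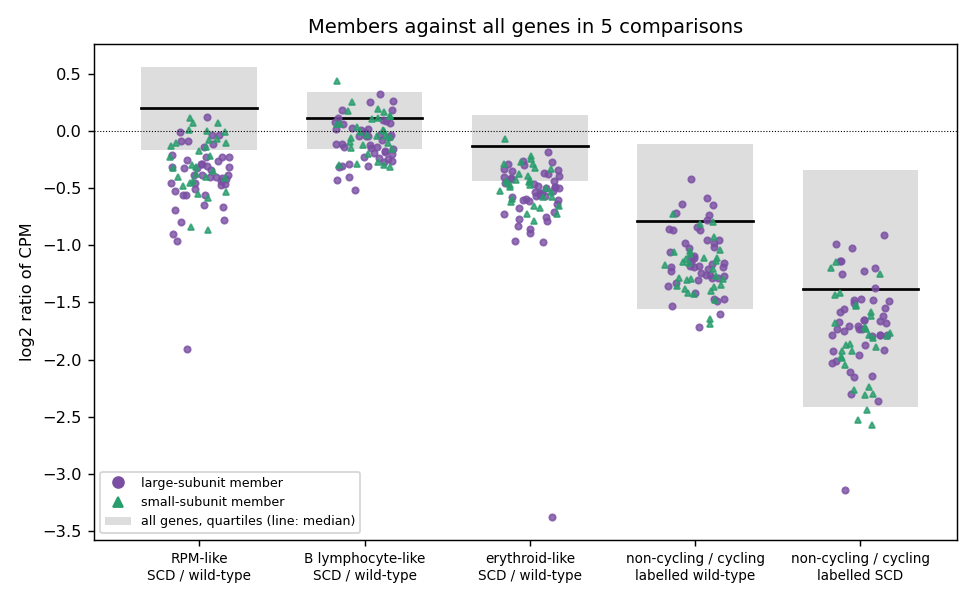
log2 ratios of CPM of single members (points) in the comparisons of libraries within a class and of erythroid stages within a library, over the quartiles (grey) and median (line) of all genes measured. The members' medians are -0.33, -0.05, -0.50, -1.18 and -1.74 from left to right, and those of all genes 0.20, 0.11, -0.13, -0.79 and -1.39.

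The Diamond-Blackfan anemia list held 19 members of the module. In RPM-like cells 5 were lower, beside 11.0% of all genes, and 0 higher (median -0.40, module -0.33), namely Rps19 (-0.87), Rpl35 (-0.78), Rpl26 (-0.69), Rpl15 (-0.56) and Rpl31 (-0.56). In B lymphocyte-like cells 0 of them passed the limit either way (median -0.06, module -0.05). In erythroid-like cells 9 were lower, beside 21.1% of all genes (median -0.50, as for the module), and all 19 were lower in non-cycling than in cycling cells of each library, beside 60.8% and 71.5% of all genes, with medians of -1.16 and -1.73 (module -1.18 and -1.74). There, Rps19 was at -1.28 and -2.24, while Rps29 was at -0.72 and -1.15. In erythroid-like cells of the libraries compared, Rpl26 had the lowest ratio and Rps7 the highest. The others of the list, Rpl5, Rpl11, Rpl18, Rpl27, Rpl35a, Rps10, Rps15a, Rps24, Rps26, Rps27 and Rps28, lay between -0.73 and -0.18 there.

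The libraries were also compared on the make-up of the module. After the module's own change was taken out, the spread of the members' log2 ratios had an SD of 0.18 to 0.27 across the 9 classes. Relative to the module, Rps13 was among the 3 members with the highest ratio in every class except erythroid-like cells. Rpl28 was among the 3 lowest in every class except the 2 monocyte-like ones.

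Over the 9 classes with at least 50 cells in each library, a member's share of ribosomal protein UMIs had a median log2 range of 0.52, from 0.17 for Rps15. The widest were Rps27l (1.56) and Rpl41 (1.33). Rpl41 gave 8.40% and 8.24% of all ribosomal protein UMIs in erythroid-like cells of the libraries labelled wild-type and SCD, and 3.62% and 3.003% in Ly6c-low monocyte-like cells. Rps2 gave 0.548% and 0.574% in erythroid-like cells, and its lowest shares were 0.266% in cDC2-like cells and 0.252% in mature DC-like cells. Rps19 was highest in mature DC-like cells (2.30% and 2.09%) and lowest in RPM-like cells (1.28% and 0.881%). Rpl10 was highest in Ly6c-high monocyte-like cells (0.494% and 0.636%) and lowest in T lymphocyte-like cells labelled wild-type (0.254%) and erythroid-like cells labelled SCD (0.293%). The high places of Rps27l, Rpl41, Rps2 and Rps19, and that of Rpl10, were in the same class in both libraries.

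Levels were compared with the module over 18 groups of cells, each class in each library, for 160 genes, as a description with groups that share libraries. Of 70 members 52 had an r over 0.9, with a median of 0.94, and of 90 other genes 4 did, with a median of 0.30. Each member is part of the sum it was compared with and the other genes are not, so part of this gap was fixed in advance. Leaving each member out of the sum was not tried. Rps15 (0.991), Rpl37 (0.990) and Rpl27a (0.990) were closest. Of the others these were Rack1 (0.946), a protein of the small subunit's head, Eef1b2 (0.940), Rps3a1 (0.935) and Tpt1 (0.931). Rpl41 (0.504) and Rplp1 (0.576), of the stalk, were least like the module.

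The paralogs stood apart. Rpl3l (ENSMUSG00000002500, chr17:24727820-24736143, plus strand), which in heart and skeletal muscle takes the place of Rpl3 in the ribosome, had its highest level in Ly6c-low monocyte-like cells. It was at 24.3 CPM (17.8 to 32.6) there in the wild-type-labelled library and 15.8 (12.4 to 19.9) in the SCD-labelled library, against 0.806 and 1.29 in all other kept cells. At least 1 UMI was found in 41 of 427 cells (9.60%, exact interval 6.98 to 12.8) and 57 of 1054 (5.41%, 4.12 to 6.95), and 1 UMI among 4643 and 0 among 1626 RPM-like cells, where a count of 0 allows up to 0.398 CPM at the floor of 3 counts. Median depths were 3357 and 3626 UMIs in the monocyte-like cells and 2136 and 4121 in the RPM-like ones. Rpl3 in the Ly6c-low monocyte-like cells was at 550.5 and 621.3 CPM, so that Rpl3l was a small addition to it.

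Rpl39l (ENSMUSG00000039209, chr16:10170226-10174911, plus strand), a copy of Rpl39 that is known from spermatogenesis, had its highest level in mature DC-like cells, at 39.6 CPM (31.6 to 49.1) labelled wild-type and 13.8 (10.1 to 18.5) labelled SCD. At least 1 UMI was found in 33 of 465 of these cells (7.1%, exact interval 4.9 to 9.8) and in 16 of 687 (2.3%, 1.3 to 3.8). In cDC2-like cells it was found in 27 of 480 (5.6%, 3.7 to 8.1) and 7 of 816 (0.86%, 0.35 to 1.8). In all other kept cells outside the mature DC-like class Rpl39l was at 7.95 and 1.61 CPM. Over all cells it was 8.57 CPM (8.03 to 9.14) and 2.22 (1.87 to 2.61), and it was higher in the wild-type-labelled library in all 9 classes, in T lymphocyte-like cells by 1 UMI against 0. Rpl39 itself was at 1559 and 1548 CPM in mature DC-like cells. Rps27l was highest in erythroid-like cells, at 341.6 (333.6 to 349.8) and 273.3 (250.8 to 297.3) CPM, where Rps27 was at 758.7 and 603.5. In B lymphocyte-like cells Rps27l was at 187.5 and 152.1 and Rps27 at 1869 and 2050. The order of erythroid-like and B lymphocyte-like cells was thus opposite for the pair.

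The 150 bases before the starts of Rpl3l, Rpl39l and Rpl39 are shown for the following reason. Both paralogs had their highest level in the same class in both libraries, and Rpl39 did not. They run 5′ to 3′ on the gene's strand and come from RefSeq (GRCm38.p6). Capitals mark CCGGAAG, a form of the site read by ETS factors, which was searched on both strands over the 300 bases of each entry. It was present in 25 of 60 members (41.7%) and in 2683 of 27025 genes (9.93%). The stretches are chr17:24727676-24727825 on the plus strand for Rpl3l, chr16:10170078-10170227 on the plus strand for Rpl39l and chrX:37085223-37085372 on the minus strand for Rpl39.
Rpl3l: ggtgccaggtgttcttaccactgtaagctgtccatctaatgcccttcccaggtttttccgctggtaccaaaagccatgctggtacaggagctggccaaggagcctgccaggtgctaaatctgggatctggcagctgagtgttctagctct
Rpl39l: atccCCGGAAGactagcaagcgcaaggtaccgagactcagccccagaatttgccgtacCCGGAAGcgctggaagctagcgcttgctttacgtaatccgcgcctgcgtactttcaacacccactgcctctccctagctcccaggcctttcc
Rpl39: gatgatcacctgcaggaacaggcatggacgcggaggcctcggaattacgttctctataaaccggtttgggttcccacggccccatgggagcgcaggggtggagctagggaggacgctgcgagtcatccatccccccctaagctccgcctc
The stretch of Rpl39l held 2 matches and those of Rpl3l and Rpl39 held 0.

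**Figure D5:**
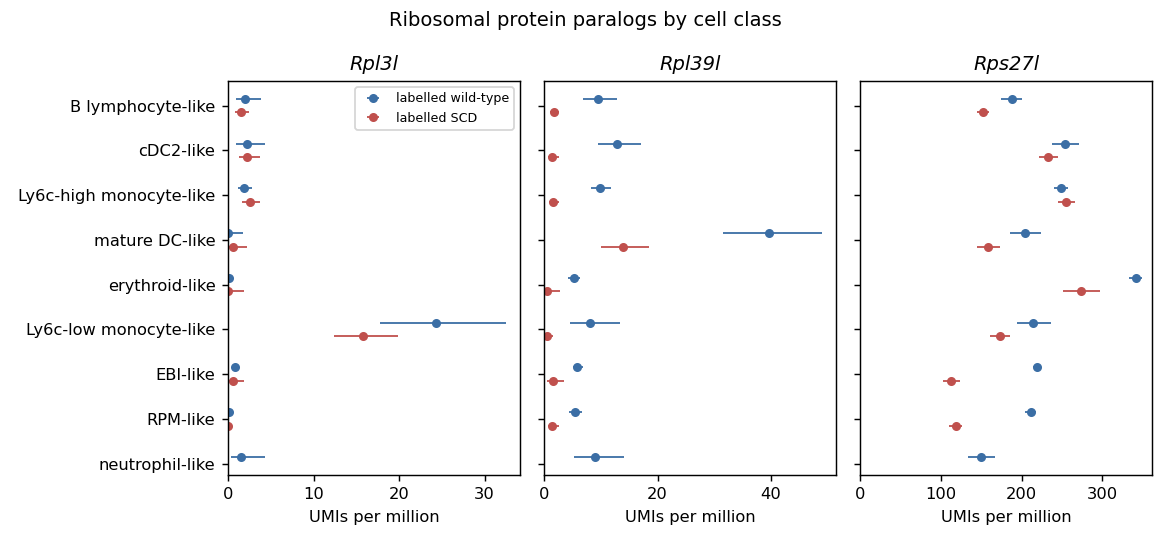
CPM of Rpl3l, Rpl39l and Rps27l in each cell class and library, with exact 95% Poisson intervals as lines; T lymphocyte-like cells are not drawn, since their intervals are wide. Rpl3l is highest in Ly6c-low monocyte-like cells (24.3 and 15.8), Rpl39l in mature DC-like cells (39.6 and 13.8) and Rps27l in erythroid-like cells (341.6 and 273.3).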

How the data were processed

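Spleen cells were sequenced in 2 droplet libraries, 1 per condition. What the authors deposited are unnormalized UMI counts for each gene and barcode. The submitters' processing notes name Cell Ranger 4.0.0, Seurat 3.2.3, Scanpy 1.6.0 and GRCm38.p6, whereas the matrix headers name Cell Ranger 3.1.0. All columns of both matrices were used.

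Cells with 500 to 5000 genes and under 15% mitochondrial UMIs were kept, with no ceiling on ribosomal protein UMIs. Size factors came from scran 1.30.0 (R 4.3.3). Ribosomal protein, sex-linked and hemoglobin genes were set aside, and the 2000 most variable others were reduced to 30 principal components and joined in a graph with 15 neighbours per cell, which was clustered at Leiden resolution 1 (scanpy 1.11.5, igraph 0.11.9, Python 3.11.15). Clusters took names from marker lists. RPM markers had to be at 4 times, and erythroid markers at 2 times, that of the reference cluster of B cells, and at least 3 markers had to be found in 10% of cells. An erythroid-like cluster was called cycling at 2000 CPM of summed cycling markers. These limits were set after the data had been seen. Doublets were scored with Scrublet and kept. Its threshold marked 0 cells of the wild-type-labelled library, so the top 10% were taken there.

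Shares are of summed UMIs, with exact binomial intervals, and single genes have exact Poisson intervals (scipy 1.17.1). A log2 ratio of shares has a normal interval. Genes with at least 100 UMIs over both groups were measured, and called higher or lower at a log2 ratio of CPM of 0.5. A count of 0 was set to 3 counts. Named members were the 5 highest and lowest by mean CPM, the 5 at each end of each comparison, the 5 that varied most between classes, the paralogs and the Diamond-Blackfan list, and of other lists the 2 with the most UMIs. Members placed farthest from the module in both erythroid stages or least like it were named in addition. The members and lists were chosen with earlier results of these data known. The calculation was tested on simulated data. Copies were searched in GENCODE M21 transcripts, with the longest principal transcript of each member. Alternatives covered filters, doublets, resolution, clustering genes, denominator, weights and members. Values of some genes are not reported here.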

Additional observations from a re-analysis of the deposited data

Results flagged for a closer look

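For 3 members the ratio between libraries differed between classes, with at least 0.25 above 0 on the log2 scale in B lymphocyte-like cells and at least 0.25 below 0 in erythroid-like cells. The difference of the log2 ratios was 0.69 for Rps13, 0.59 for Rpl7 and 0.53 for Rpl9. The share of the whole module was at log2 ratios of -0.08 in B lymphocyte-like and -0.54 in erythroid-like cells, a difference in the same direction. How many of all genes pass the same limits was not counted. Rps13 was at 1003 CPM labelled wild-type and 1359 labelled SCD in B lymphocyte-like cells, and at 501.7 and 421.8 in erythroid-like cells. Rpl7 was at 1327 and 1661, and at 1104 and 919.1. Rpl9 was at 793.1 and 948.4, and at 528.3 and 437.9. These differences were not tested, since each value comes from 1 library. Rps13, Rpl7 and Rpl9 shared 84.6%, 78.8% and 100% of their 3′ stretches with other transcripts.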

How the results depend on the processing

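Over all alternatives 0 of the ratios and counts changed direction, while 34 values of the main comparisons moved past their counting interval or, for counts, by over 1.5 times, and 25 did not. The log2 ratio over all kept cells (0.15) was 0.14 with a minimum of 200 genes, 0.18 without doublets, 0.17 without clusters over 50% doublets, 0.16 in cells of 2000 to 5000 UMIs, 0.15 without hemoglobin and mitochondrial UMIs, 0.19 as a mean of cells and 0.16 with 4 members added. In RPM-like cells (-0.33) it was -0.22 with 200 genes, -0.30 without doublets, -0.50 in cells of 2000 to 5000 UMIs, -0.35 without hemoglobin and mitochondrial UMIs, -0.39 as a mean of cells, and -0.34 with a ceiling of 30% ribosomal protein UMIs per cell and at resolution 2. In B lymphocyte-like cells (-0.08) it was -0.02 with 200 genes, -0.03 without doublets and at resolution 0.5, -0.17 at resolution 2 and with ribosomal protein genes among the variable genes, -0.20 without clusters over 50% doublets, -0.19 in cells of 2000 to 5000 UMIs, -0.07 without hemoglobin and mitochondrial UMIs and -0.14 as a mean of cells. For the erythroid stages (-1.04 labelled wild-type and -1.70 labelled SCD) the values were -0.84 and -1.12 without doublets, -0.38 and -1.03 in cells of 2000 to 5000 UMIs, -0.96 and -1.39 without hemoglobin and mitochondrial UMIs, and -1.02 and -1.47 as a mean of cells. The 18 lower members in RPM-like cells were 11 with 200 genes, 40 in cells of 2000 to 5000 UMIs and 1 at a log2 limit of 1. The limits on doublet clusters and on depth, and leaving out the 107 shared barcodes, were chosen after seeing the data. At resolution 0.5, with 200 genes and with ribosomal protein genes among the variable genes no non-cycling erythroid-like cluster was found, and the stage ratio has no value there. No paired analysis was possible because each condition had 1 library.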

Other observations

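Barcodes that were not kept held other shares of the module. Those with under 500 genes had 4.58% ribosomal protein UMIs in the wild-type-labelled library and 2.96% in the SCD-labelled library, with 7.52% and 42.2% hemoglobin. Those with over 5000 genes had 11.9% and 10.8%. Those with at least 15% mitochondrial UMIs had 7.14% and 7.25%. A share of 30% or more was found in 1 kept cell of each library.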
